A study of Homo sapiens with 4 samples.

Results

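The 10 genes described here encode the inhibitors of cyclin-dependent kinases (CDKs) and the pocket proteins. They were taken by gene symbol, 3 inhibitors of the CIP/KIP family (CDKN1A, CDKN1B and CDKN1C), 4 of the INK4 family (CDKN2A, CDKN2B, CDKN2C and CDKN2D) and 3 pocket proteins (RB1, RBL1 and RBL2), and all 10 were found among the 23459 genes listed in the count tables. The cells were wild type hTERT RPE-1, a non-cancerous human line of retinal pigment epithelium kept dividing by telomerase. All cultures were starved for 48 h in medium with 0.1% serum and then received 200 μM merbarone, a catalytic inhibitor of DNA topoisomerase II, for 4 h or 8 h. RNA-Seq gave 4 libraries, 2 biological replicates at each time. Every comparison is therefore 8 h against 4 h among treated cells. Untreated cells were not analysed here, and a longer exposure cannot be told apart from a longer time in low serum.

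CDKs drive cells through the division cycle when bound to cyclins. INK4 proteins bind CDK4 and CDK6 and keep cyclin D away from them, whereas CIP/KIP proteins bind complexes of cyclins with CDKs, above all those of CDK2. Pocket proteins that carry few phosphates hold E2F transcription factors and keep S phase genes silent, and phosphorylation by the CDKs releases them. p107 (RBL1) and p130 (RBL2) also join the MuvB core and E2F4 in the DREAM complex, the main repressor of cell cycle genes in quiescent cells.

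The libraries held between 8064450 and 10324697 counts on genes. Of the 23459 genes, 12559 had more than 1 CPM (count scaled to library size) in at least 2 libraries and were tested with edgeR. Replicates varied by a biological coefficient of variation of 6.52%. Of 12 marker genes of retinal pigment epithelium, 8 had at most 10 counts in every library, with RGR and TYR at 0, while MITF (669 to 882 counts) and OTX2 (132 to 193 counts) were present. The epithelial keratins KRT8 and KRT18 were present and the epithelial markers CDH1 and EPCAM had at most 1 count. The mesenchymal markers FN1 (130059 to 164319 counts), VIM (88366 to 91660), CDH2 (3048 to 3950) and COL1A1 (401 to 899) were present. A further mesenchymal marker, COL1A2, had at most 2 counts. The endothelial and leukocyte markers had at most 8 counts in any library.

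All 10 genes passed the CPM filter, CDKN1C with 10, 11, 13 and 25 counts. Their TMM-normalized counts, which are counts scaled by effective library size, gave 8 genes that changed between 4 h and 8 h at an adjusted p below 0.05, 3 higher and 5 lower. Of all tested genes 38.8% passed the same threshold, 19.9% higher and 18.8% lower. CDKN1A, CDKN1B and CDKN2A rose, while CDKN2B, CDKN2C, CDKN2D, RB1 and RBL1 fell. In bulk RNA, fewer cells that express a gene and less of its RNA per cell cannot be told apart. Differentially expressed genes (DEGs), which must also exceed an absolute log2 fold change (log2FC) of 1, were CDKN2C and RBL1, both lower. Of all tested genes 5.33% were DEGs, 1.45% higher and 3.88% lower. The libraries of the times did not overlap in any of the 10 genes, 4 higher and 6 lower at 8 h, nor in 69.7% of the tested genes, 34.8% higher and 34.9% lower. The median log2FC was −0.23 over the 10 genes and 0.00 over all tested genes, and by family it was 0.82 for CIP/KIP, −0.65 for INK4 and −0.32 for the pocket proteins. With DESeq2 in place of edgeR 3 genes fell, since CDKN2D and RB1 missed the threshold.

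**Figure D1:**
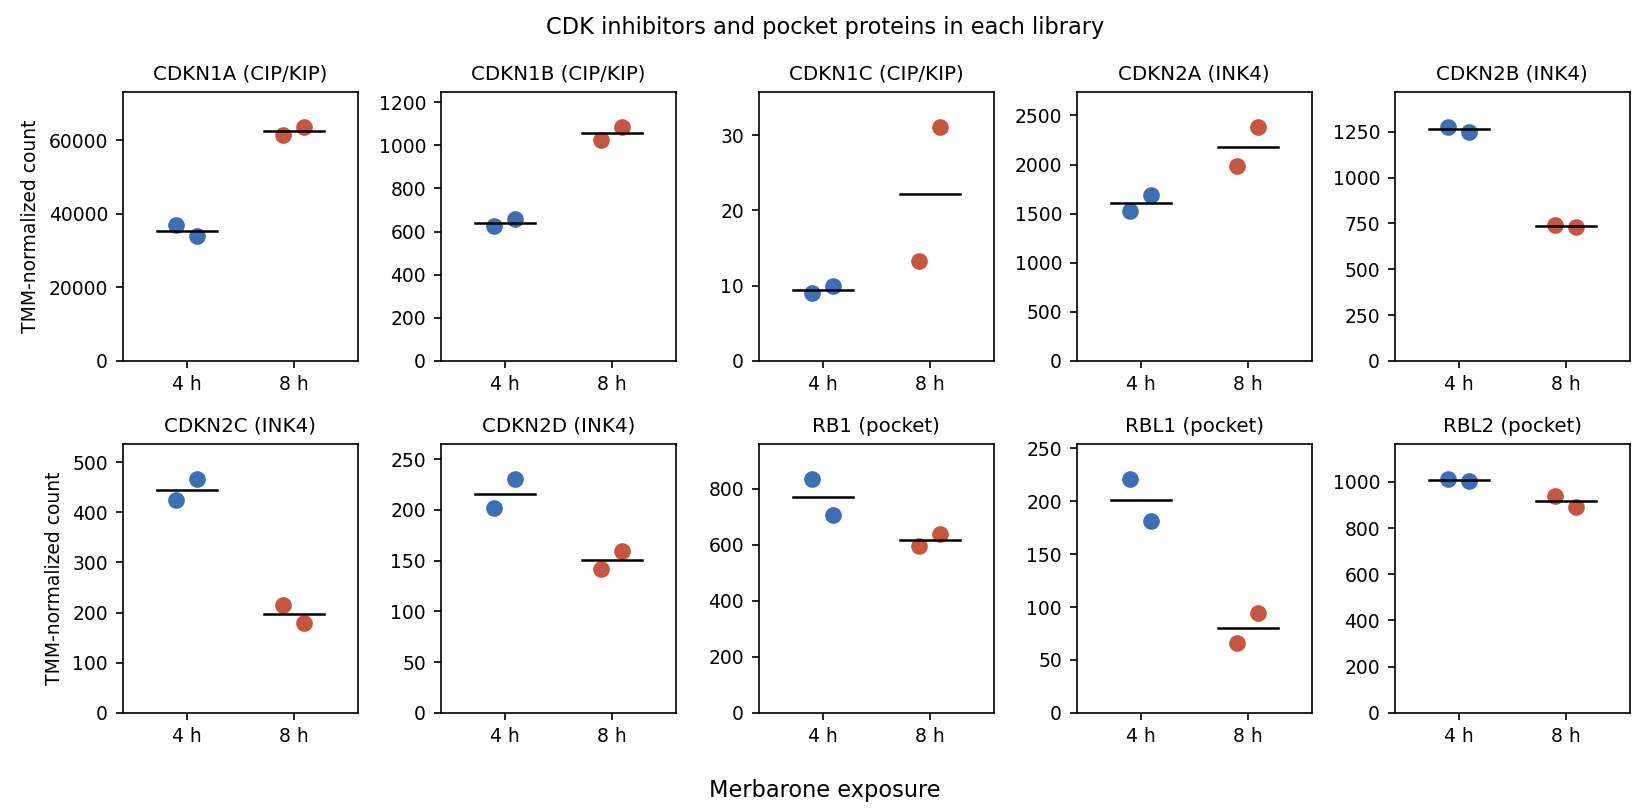
TMM-normalized counts (vertical axes, each starting at 0) of the 10 genes at 4 h (blue) and 8 h (red) of merbarone. Points are single libraries and bars are means of 2 libraries, and in every panel the points of the times lie apart, most closely for RB1 and RBL2.

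Promoter sequences are shown for genes that moved differently, the pocket protein pair RBL1 and RBL2 and the inhibitor CDKN1A. They are the 250 bases before an annotated transcript start in RefSeq (GRCh38.p14), read 5′ to 3′ on the strand of the gene. Of the 10 genes, 9 had at least 1 such window, and that of RB1 was at an internal start and is not described. RBL2 had a further window, chr16:53435369-53435618, which is not printed and also held no match. The motifs searched on both strands were E2F sites (TTTCCCGC, TTTCGCGC, TTTGCCGC or TTTGGCGC), cell cycle homology regions (TTTGAA or TTCGAA) and GC boxes (GGGCGG), and matches are in capitals.
RBL1, chr20:37095998-37096247, minus strand: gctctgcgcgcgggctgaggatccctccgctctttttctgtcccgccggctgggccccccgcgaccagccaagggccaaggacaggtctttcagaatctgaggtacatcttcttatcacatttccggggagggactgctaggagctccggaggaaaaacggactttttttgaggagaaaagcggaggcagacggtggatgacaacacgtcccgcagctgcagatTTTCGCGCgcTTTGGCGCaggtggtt
RBL2, chr16:53434221-53434470, plus strand: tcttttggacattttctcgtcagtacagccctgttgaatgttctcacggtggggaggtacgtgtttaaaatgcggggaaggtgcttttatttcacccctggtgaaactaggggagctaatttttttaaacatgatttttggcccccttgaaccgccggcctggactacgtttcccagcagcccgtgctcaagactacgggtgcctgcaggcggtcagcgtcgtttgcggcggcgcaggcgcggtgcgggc
CDKN1A, chr6:36678464-36678713, plus strand: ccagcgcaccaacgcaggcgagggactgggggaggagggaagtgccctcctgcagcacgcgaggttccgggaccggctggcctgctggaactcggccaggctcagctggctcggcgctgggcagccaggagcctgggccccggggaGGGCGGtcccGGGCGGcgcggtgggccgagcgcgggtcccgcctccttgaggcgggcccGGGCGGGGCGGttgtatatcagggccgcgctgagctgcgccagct

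In the RBL1 window both matches were E2F sites, TTTCGCGC from −26 to −19 and TTTGGCGC from −16 to −9 relative to the start. Of the 35116 windows of all genes, 2.79% held an E2F site as spelled here. No other window of the 9 genes did, nor did any hold a cell cycle homology region, which 14.3% of all windows had. The first start of RB1 and the promoter of CDKN1C were not in any window, so their motifs were not searched. The 4 matches of CDKN1A were GC boxes, of which the pair nearest to the start shared 1 base. GC boxes were found in 42.6% of all windows. Of the other genes that rose, CDKN1B had 1 and CDKN2A had 1 in 1 of its windows. Among those that fell, CDKN2B and CDKN2D had 2 each, and CDKN2C had 5 in 1 window and 1 in another. These matches describe letters in a window and not binding.

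CDKN1A encodes p21, an inhibitor best known for its induction by DNA damage. It lies on chromosome 6 (36644237 to 36655114, plus strand, GRCh37, the assembly of hg19). Replicates 1 and 2 had normalized counts of 36830 and 34018 at 4 h, against 61310 and 63568 at 8 h. Both 8 h libraries were far above both 4 h libraries. Its log2FC was 0.82 (standard error 0.06, edgeR adjusted p = 1.21e-08), a rise of 1.76-fold that 96.7% of the tested genes did not reach. The size of the rise depended on the scaling, with a log2FC of 0.71 with library size alone and 0.61 with the trend with mean expression removed. Before normalization, CDKN1A made up 0.398% and 0.368% of the reads on genes at 4 h, against 0.620% and 0.634% at 8 h. The 95% Wilson intervals of these shares, which cover counting error only, reached at most 0.0055 percentage points to either side. By count it held place 14 among all genes in both 4 h libraries and place 6 in both 8 h libraries. It carried between 84.6% and 91.5% of the reads on the 10 genes.

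CDKN1B encodes p27, an inhibitor that accumulates in serum-starved cells. It lies on chromosome 12 (12838432 to 12875303, plus strand). Its normalized count rose from 624.6 and 657.3 at 4 h to 1026 and 1085 at 8 h, with tight replicates at both times. The log2FC was 0.72 (standard error 0.09, edgeR adjusted p = 3.65e-06). GPR19, which overlaps it on the opposite strand, had 20 and 23 counts at 4 h, then 4 and 3 at 8 h, few beside the 696 to 1003 counts of CDKN1B.

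CDKN1C, which encodes p57, was near the limit of detection. The 4 h libraries had 8.97 and 9.97 normalized counts and the 8 h libraries 13.3 and 31.1. Its CPM was above 1 in every library but replicate 1 at 4 h. The 8 h replicates differed from each other by more than the lower of them differed from the 4 h libraries. The log2FC, 1.17 with a standard error of 0.47, missed the threshold (edgeR adjusted p = 0.0543), and its 95% interval ran from 0.19 to 2.15. The value rested on replicate 2 at 8 h, since the log2FC was 0.49 without that library (edgeR adjusted p = 0.542) and 1.70 without replicate 1 at 8 h (edgeR adjusted p = 0.00252).

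**Figure D2:**
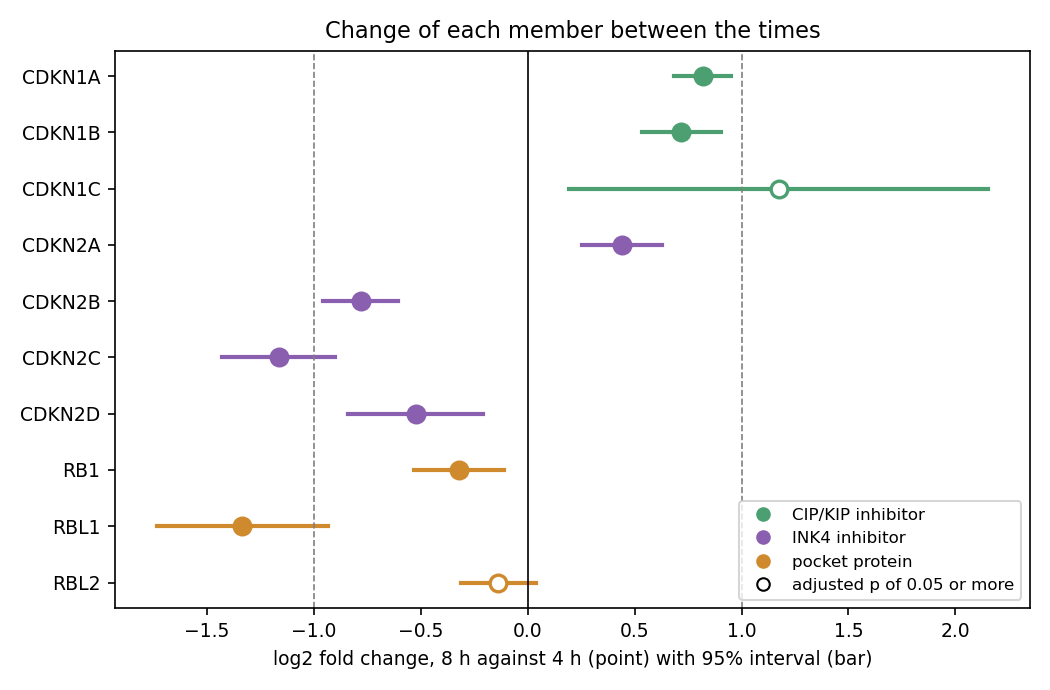
Log2FC of each gene, 8 h against 4 h (horizontal axis), with 95% intervals from edgeR as bars. Filled points had an adjusted p below 0.05, dashed lines mark an absolute log2FC of 1, and CDKN1A, CDKN1B and CDKN2A lie to the right of 0 while CDKN2B, CDKN2C, CDKN2D, RB1 and RBL1 lie to the left.

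The INK4 genes CDKN2A and CDKN2B are neighbours on chromosome 9 and moved in opposite directions. CDKN2A (21967751 to 21995300, minus strand) encodes p16 and, through another first exon, p14ARF, and its counts pool the transcripts of both proteins. At 4 h it had 1525 and 1687 normalized counts, against 1984 and 2382 at 8 h, so that each 8 h library lay above both 4 h libraries. The log2FC was 0.44 (standard error 0.09, edgeR adjusted p = 0.000715), a smaller rise than the values of CDKN1A and CDKN1B.

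CDKN2B (22002902 to 22009304, minus strand) encodes p15, an inhibitor known to be induced by TGF-beta. It went from 1276 and 1250 normalized counts at 4 h to 739.4 and 729.4 at 8 h. Replicates were nearly equal at each time. The log2FC was −0.78 (standard error 0.08, edgeR adjusted p = 6.87e-07). The antisense gene CDKN2B-AS1 overlaps both CDKN2A and CDKN2B and had 3 to 11 counts per library, against at least 587 counts of either inhibitor. MTAP, a neighbour on the side of CDKN2A, had 535 and 503 counts at 4 h, against 312 and 214 at 8 h, lower at 8 h like CDKN2B.

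CDKN2C (chromosome 1, 51426417 to 51440306, plus strand) encodes p18, an INK4 protein whose gene is known to respond to E2F. It showed the largest fall of the inhibitors. The libraries at 4 h held 424.5 and 466.0 normalized counts, those at 8 h 215.8 and 178.9, so that the lowest 4 h value was close to 2 times the highest 8 h value. The log2FC was −1.17 (standard error 0.13, edgeR adjusted p = 8.2e-07), and 2.71% of all tested genes had a lower log2FC.

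CDKN2D (chromosome 19, 10677136 to 10679735, minus strand) encodes p19, whose level is known to change through the cycle. From 201.9 and 230.3 normalized counts at 4 h it went to 142.2 and 159.0 at 8 h, and the times did not overlap. Its log2FC was −0.52 (standard error 0.15, edgeR adjusted p = 0.00996). The call depended on a single library, since the adjusted p was 0.131 in edgeR without replicate 2 at 4 h, with a log2FC of −0.43.

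Of the pocket proteins, RBL1 fell the most. RBL1 (chromosome 20, 35624752 to 35724400, minus strand) encodes p107, the pocket protein of cycling cells. It had 220.8 and 181.3 normalized counts at 4 h, against 66.5 and 94.4 at 8 h. The replicates at 8 h differed by 0.50 on the log2 scale, and still lay well under both 4 h libraries. The log2FC was −1.34 (standard error 0.19, edgeR adjusted p = 2.16e-05), and 1.66% of all tested genes had a lower one. It was the lowest log2FC of the 10 genes. The RBL1 promoter window is the one printed above with a pair of E2F sites. CDKN2C, the other DEG, had no E2F site as spelled here in any of its windows. A link between such sites and the changes was not tested.

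RB1 (chromosome 13, 48877880 to 49173572, plus strand) encodes pRB, the retinoblastoma protein. At 4 h RB1 had 833.7 and 706.2 normalized counts, against 594.2 and 639.9 at 8 h. The 4 h replicates were farther from each other than the lower of them was from the higher 8 h library. The log2FC was −0.32 (standard error 0.10, edgeR adjusted p = 0.0157). Without replicate 1 at 4 h it was −0.21, and the adjusted p in edgeR was 0.251. RCBTB2, annotated across the 3′ part of the RB1 span on the opposite strand, had 177 to 268 counts per library, and the counting of strand is not given in the sources used here.

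RBL2 (chromosome 16, 53467889 to 53525560, plus strand) encodes p130, the pocket protein of quiescent cells. It had 1011 and 1005 normalized counts at 4 h, against 938.9 and 892.1 at 8 h. Both 8 h values were slightly lower, with a log2FC of −0.14 and a standard error of 0.08, which missed the threshold (edgeR adjusted p = 0.204). The 95% interval, from −0.31 to 0.04, lay above that of RBL1, from −1.74 to −0.94. With library size alone as scaling, RBL2 passed with a log2FC of −0.24 (edgeR adjusted p = 0.0279), and this scaling moved the median of all tested genes to −0.11.

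Ratios between genes of a library do not depend on the scaling between libraries. They were chosen after the values were seen and are given without a test, per kilobase of merged exons. Another transcript length would change the size of a ratio by the same factor in every library. RBL2 had 3.36 and 4.07 times the level of RBL1 at 4 h, but 10.4 and 6.94 times at 8 h. The ratio of RB1 to RBL1 went from 3.50 and 3.61 at 4 h to 8.27 and 6.27 at 8 h. Both ratios were higher in each 8 h library than in either 4 h library. The ratio of RBL2 to RB1 stayed near 1 at both times, from 0.962 to 1.25, and the times overlapped. RBL1 was thus lower at 8 h relative to both other pocket proteins.

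Among the inhibitors, the ratio of CDKN2A to CDKN2B was 1.23 and 1.39 at 4 h, against 2.76 and 3.36 at 8 h, the mean at 8 h being 2.34 times that at 4 h. CDKN2B over CDKN2C went from 2.27 and 2.02 to 2.59 and 3.08. Per kilobase of the canonical transcript CDKN2B was below CDKN2C, with means of 34.2 and 46.7 at 4 h. The canonical means at 8 h were 19.9 and 20.7. CDKN1A over CDKN1B was 182.2 and 159.9 at 4 h, against 184.6 and 181.0 at 8 h. The ratio of this CIP/KIP pair overlapped between the times, whereas that of the INK4 neighbours on chromosome 9 did not.

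**Figure D3:**
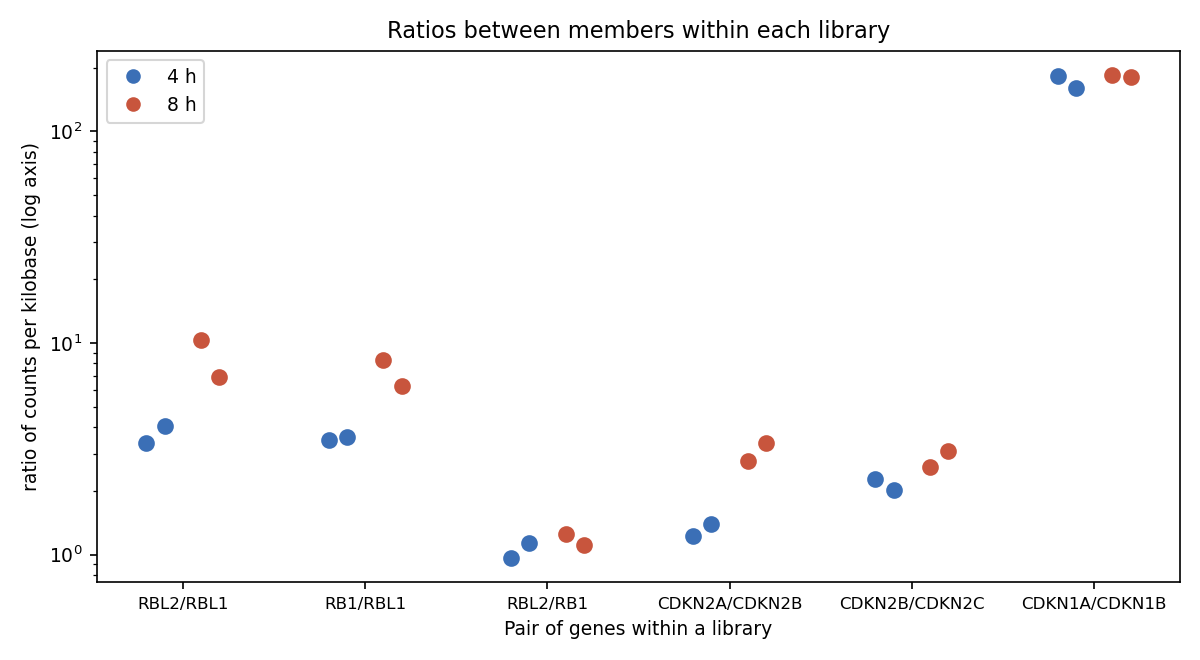
Ratios of counts per kilobase of merged exons between pairs of genes within each library (vertical axis, log scale), at 4 h (blue) and 8 h (red). Points are single libraries, and the ratios to RBL1 and of CDKN2A to CDKN2B are higher at 8 h, while CDKN1A/CDKN1B and RBL2/RB1 overlap between the times.

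The genes were also ordered by level, as TMM-normalized CPM per kilobase of merged exons. CDKN1A was the highest, with 1282 and 1184 at 4 h, then 2135 and 2213 at 8 h. CDKN2A and CDKN2B came next at both times, with means of 43.1 and 32.9 at 4 h and 58.6 and 19.2 at 8 h. At 4 h CDKN2C (15.4), CDKN2D (14.98), RBL2 (13.0), RB1 (12.5) and CDKN1B (7.22) followed as means. Of these, CDKN2C and CDKN2D could not be ordered beyond the spread of replicates, nor could RBL2 and RB1. At 8 h CDKN1B (11.9) had moved up to place 4, where it overlapped RBL2 (11.8), and CDKN2C (6.82) had moved down to place 8, below the overlapping CDKN2D (10.4) and RB1 (10.004). RBL1 and CDKN1C were the lowest at both times, with means of 3.52 and 0.398 at 4 h, and overlapped at 8 h with means of 1.41 and 0.933. Levels depended on the gene model. The merged exons of CDKN2A hold 3885 bases and its canonical transcript 978, which gave a mean of 171.3 in place of 43.1 at 4 h. With the canonical transcript, the 4 h mean was 27.7 in place of 7.22 for CDKN1B and 46.7 in place of 15.4 for CDKN2C.

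For 1 gene of each family, the genes with the most similar values over the 4 libraries were found among the 9360 genes whose mean normalized count reached 100. The measure was the root mean square difference of log2 normalized counts, with each gene centred on its mean. CDKN1A was most similar to FBXW7 (0.015), which encodes a receptor of the ubiquitin ligase for cyclin E, followed by GFPT1 (0.018), the first enzyme of hexosamine synthesis, and RASAL2 (0.020), which switches off Ras, and 196 genes lay within 0.1. CDKN2C was most similar to RFC4 (0.037), a subunit of the clamp loader in replication, CDCA2 (0.038) and CHAF1A (0.039), a subunit of the chromatin assembly factor, with 44 genes within 0.1. RBL1 was most similar to TRIM59 (0.044) and the mitotic kinesin gene KIFC1 (0.078), followed by DEPDC1 (0.11), and 2 genes lay within 0.1. With 4 libraries at 2 times this likeness mostly reflects the size of the change.

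The partners of these proteins were counted in 6 lists with 52 genes, of which 51 were tested, 12 rose (23.5%) and 19 fell (37.3%). Of all tested genes 19.9% rose and 18.8% fell. In the list of cyclin D and its kinases, the targets of the INK4 proteins, 3 of 5 genes rose and 1 fell, with a median log2FC of 0.25. CDK6 rose from 567.1 ± 75.01 to 1156 ± 53.9 normalized counts (SD, n = 2), a log2FC of 1.03 (edgeR adjusted p = 1.59e-07). CCND1, the cyclin D1 gene, fell from 8558 ± 329 to 5772 ± 172 (SD, n = 2), a log2FC of −0.57 (edgeR adjusted p = 3.58e-06). The rise of CDK4 was small, with a log2FC of 0.25 (edgeR adjusted p = 0.0191). It did not pass with library size alone, with the trend with mean expression removed, or without replicate 1 of either time (edgeR adjusted p up to 0.267). CCND2, named after its value was seen, rose from 20 and 24 counts at 4 h to 56 and 37 at 8 h.

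Genes of cyclin E, cyclin A and CDK2, the complexes bound by CIP/KIP proteins, fell in 3 of 4 cases and all 3 were DEGs, against 18.8% lower and 3.88% lower DEGs among all tested genes. CDK2 fell from 915.8 ± 31.0 to 440.0 ± 10.4 normalized counts (SD, n = 2), a log2FC of −1.06 (edgeR adjusted p = 6.67e-08). CCNA2 had a log2FC of −1.35 (edgeR adjusted p = 4.29e-07), and CCNE2 fell from 77 and 75 counts at 4 h to 8 and 11 at 8 h. CCNE1, the other cyclin E gene, was named with it after the values were seen and had a log2FC of 0.29 (edgeR adjusted p = 0.37). The median of this list was −1.20.

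Of the 10 E2F and DP genes, which encode the factors held by pocket proteins and E2F proteins that act without them, 3 rose and 5 fell. E2F7, an E2F that represses without a pocket protein, rose with a log2FC of 0.60 (edgeR adjusted p = 1.53e-05). The DP partners TFDP1 and TFDP2 fell, by 0.56 and 0.50 on the log2 scale (edgeR adjusted p = 4.01e-05 and 0.00332). The DEGs E2F2 and E2F8, which fell, and E2F5, which rose, had mean normalized counts under 100 and were named after their values were seen. Of the MuvB core, 2 of 5 genes fell (40.0%) and 0 rose, against 18.8% and 19.9% of all tested genes. RBBP4 fell with a log2FC of −0.66 (edgeR adjusted p = 9.07e-05). LIN9 fell from 94 and 78 counts at 4 h to 58 and 25 at 8 h. LIN9 had a mean normalized count under 100 and was named after its value was seen. Its call was lost in DESeq2, with the trend removed, and without either 4 h replicate or replicate 2 at 8 h (adjusted p up to 0.261).

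Subunits of the ubiquitin ligases that remove p21, p27, p57 and p130 were set beside all tested genes, of which 18.8% fell and 19.9% rose. The subunits fell in 4 of 11 cases (36.4%) and rose in 1 (9.1%). Without replicate 1 at 4 h 2 fell, since SKP2 and CUL4B missed the threshold. DTL, the receptor of the CUL4 ligase for p21, had the largest change, from 560.1 ± 16.4 to 174.0 ± 7.07 normalized counts (SD, n = 2), a log2FC of −1.68 (edgeR adjusted p = 3.17e-09). CUL4A, a scaffold of that ligase, fell with a log2FC of −0.68 (edgeR adjusted p = 8.87e-06) and the F-box gene FBXL12 rose with a log2FC of 0.55 (edgeR adjusted p = 0.00125). SKP2, the receptor for p27, was named after its value was seen. It had 121 and 117 counts at 4 h, against 68 and 48 at 8 h (log2FC −0.72, edgeR adjusted p = 0.00769). Its call was also lost in DESeq2 (adjusted p up to 0.0561).

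Among 17 regulators of CDK inhibitor transcription 16 were tested. Of these 5 rose (31.2%) and 4 fell (25.0%), against 19.9% and 18.8% of all tested genes. The median log2FC of the list was 0.00. The number that rose was 2 in DESeq2, 3 with library size alone, and 6 with the trend removed and with the replicate block. It also moved in both directions with 1 library left out. The number that fell was 3 in DESeq2 and without the filter on low counts. MDM2, which encodes a ubiquitin ligase, had 3232 ± 673 normalized counts at 4 h and 5299 ± 98.0 at 8 h (SD, n = 2), a log2FC of 0.71 (edgeR adjusted p = 1.44e-05). SMAD3, a transducer of the TGF-beta signal, fell from 1470 ± 94.7 to 742.1 ± 33.8 (SD, n = 2), a log2FC of −0.98 (edgeR adjusted p = 6.52e-08). EZH2, the Polycomb methyltransferase, fell with a log2FC of −0.83 (edgeR adjusted p = 6.53e-05), and the Polycomb gene BMI1 was not tested, at 3 to 14 counts.

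**Figure D4:**
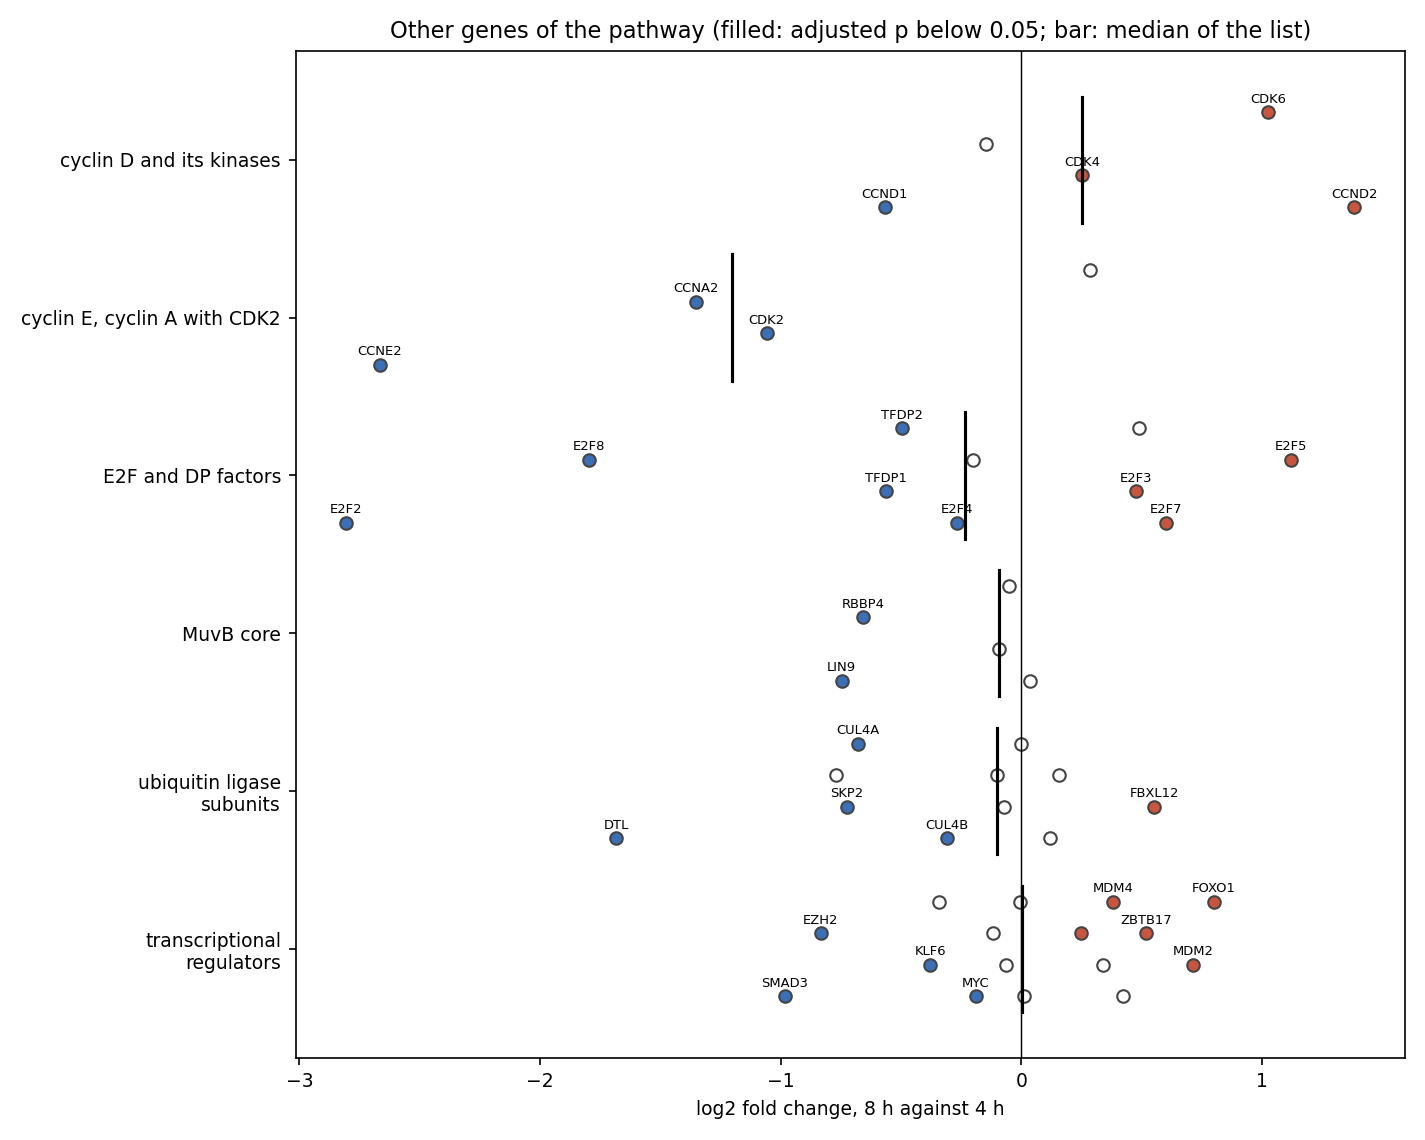
Log2FC, 8 h against 4 h (horizontal axis), of the 51 tested genes in 6 lists (rows), each point a gene and each black bar the median of a list. Filled points had an adjusted p below 0.05 in edgeR, red if higher and blue if lower at 8 h, and the list of cyclin E and cyclin A with CDK2 has the lowest median, −1.20.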

How the data were processed

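Reads were mapped to hg19 by the authors with Bowtie 1.2.0 (version from the submitters' processing notes) after quality control in FASTQC, and only those with 1 genomic position were kept. The deposited values are raw read counts of genes, without normalization. The counting tool and gene annotation are not given in the sources used here. Ungapped mapping loses reads across splice junctions, most in genes of many short exons: of the 75-base windows of the canonical transcript, 62.6% lay in 1 exon for RB1 and 98.0% for CDKN2B. The same rules held for every library, so this bears on levels between genes more than on changes.

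Symbols came from the RefSeq table of GRCh38.p14 (23308 of 23459 genes) and positions and exons from GENCODE on GRCh37. Depth per library ranged from 8064450 to 10324697 counts. Genes had to exceed a CPM of 1 in no fewer than 2 libraries. They were normalized by TMM and tested on all 4 libraries with the quasi-likelihood test of edgeR 4.0.16 (R 4.3.3), with time as the only term and Benjamini-Hochberg adjustment over all genes tested. The standard error is the log2FC divided by the square root of F. Tests were checked on simulated data. Alternatives were limma-voom (limma 3.58.1), DESeq2 1.42.0, other scalings and filters, removal of the trend with mean log2-CPM, a replicate block and each library left out.

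The 10 genes, the lists and the tests were chosen with earlier results of these data known. From each list, up to 3 genes past the adjusted p threshold with the largest absolute log2FC and a mean normalized count of at least 100 were named. List genes named outside this rule are marked where they appear, apart from CUL4B, E2F1 and FOXO4, named for a changed call, and BMI1, named as not tested. The most similar genes were sought for CDKN1A, CDKN2C and RBL1. Replicates were not copies of 1 library (chi-square per degree of freedom 2.67 at 4 h and 3.84 at 8 h, near 1 for sampling of reads alone). A gene of the lists is counted but not reported by name here.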

Additional observations from a re-analysis of the deposited data

How the results depend on the processing

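Of 119 log2FC values of the 10 genes under alternatives, all kept their direction and 110 their side of the threshold. CDKN1A, CDKN1B, CDKN2A, CDKN2B, CDKN2C and RBL1 passed in each alternative. With DESeq2, 3 genes fell in place of 5, since CDKN2D (−0.52, adjusted p = 0.0555) and RB1 (−0.32, adjusted p = 0.0629) did not pass. RBL2 passed with library size alone (−0.24) and with the trend with mean expression removed (−0.24), and CDKN1C with that trend removed (1.41). With a CPM above 2 required, CDKN1C was not tested. With 1 library left out, where the lone library of a time is assumed to vary like the other time, log2FC ran from 0.49 to 1.70 for CDKN1C, from −0.63 to −0.43 for CDKN2D and from −0.44 to −0.21 for RB1. The causes were not tested. The lists gave 8 to 14 genes higher and 14 to 20 lower.

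The labels number the replicates 1 and 2 at both times. In a fit with a replicate block, 4 genes rose and 5 fell, as CDKN1C passed (1.18, adjusted p = 0.0266), and the block changed no other call among the 10 genes. In the lists 13 genes rose and 20 fell with the block, as FOXO4 and E2F1 also passed. Deviations of same-numbered libraries had a correlation of 0.05 over 12559 genes and 0.11 over the 9396 whose mean count reached 100. The labels name nothing else that same-numbered libraries share, and these values do not settle whether they were paired.

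The order by level depended on transcript length. With the longest transcript, 6 of 10 genes kept their place at 4 h and 6 at 8 h. With lengths chosen after seeing the data, the canonical transcript kept 6 and 5, and its 75-base windows within 1 exon kept 5 and 4. With 1 library left out, 8 to 10 kept their place at either time. CDKN1A and CDKN2A held the first places and RBL1 and CDKN1C the last in each of these orders.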
